A study of Mus musculus with 6 samples.

Results

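miR-211 and miR-204 are related mouse miRNAs, and the table of mature miRNAs holds both arms of each. The members were chosen by name, which gave 4 of the 1480 entries: mmu-miR-211-5p, mmu-miR-211-3p, mmu-miR-204-5p and mmu-miR-204-3p, written below without the species prefix. They were counted by small RNA sequencing of skin from mice irradiated with ultraviolet A (UVA) every other day for 4 months, to 89.88 J/cm2 in total, and of skin from non-irradiated mice. Each group had 3 libraries. The sources used here give neither strain, age, sex and coat colour of the mice nor whether replicates are separate animals, so p-values measure the spread between these samples, which may be technical.

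A miRNA is cut from a hairpin transcript, and its bases 2 to 8, the seed, pair with sites in mRNAs that are then repressed. miR-211 lies in an intron of Trpm1 (melastatin), a cation channel gene that the transcription factor Mitf drives in melanocytes, the pigment cells of skin and hair follicles. It is made together with its host and is known from human melanoma cells, where its loss accompanies loss of Trpm1. miR-204 lies in an intron of Trpm3, a gene of the same channel family, and is known from the retinal pigment epithelium, lens and choroid plexus.

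The mature sequences are shown because the comparison rests on telling the 5p arms apart; capitals mark the seed, and the letters are those of RefSeq, build GRCm38.p6.
miR-211-5p: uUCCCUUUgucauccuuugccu
miR-204-5p: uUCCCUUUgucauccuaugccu
miR-211-3p: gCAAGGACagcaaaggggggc
miR-204-3p: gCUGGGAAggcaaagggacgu
Both 5p arms have 22 bases and the same seed, whose complementary site in an mRNA is AAAGGGA. They differ by 1 edit, A17U, which gives the miR-204-5p base, the position from the 5′ end and the miR-211-5p base. The 3p arms have different seeds and lie 7 edits apart. The only other entry with the seed of the 5p arms is miR-7670-3p, at 10 edits from each, with at most 7 reads in any library.

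The hairpins are shown with both mature arms in capitals.
Mir211: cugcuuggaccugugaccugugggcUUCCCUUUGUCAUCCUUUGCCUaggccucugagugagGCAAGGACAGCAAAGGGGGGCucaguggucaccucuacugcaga
Mir204: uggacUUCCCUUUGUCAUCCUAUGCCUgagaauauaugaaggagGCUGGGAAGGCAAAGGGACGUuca
Mir211 spans 64205806 to 64205911 of chromosome 7 on the plus strand, within intron 6 of the 26 introns of the longest coding transcript of Trpm1 that covers it. Mir204 spans 22750605 to 22750672 of chromosome 19 on the plus strand, within intron 6 of 24 in the longest such transcript of Trpm3. Each has the orientation of its host. Neither overlaps an exon of the annotated host transcripts that span it, which are 12 of 23 for Trpm1 and 18 of 24 for Trpm3.

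miRNA reads numbered 8.195 to 12.818 M per UVA library and 7.654 to 17.193 M per non-irradiated library. Entries with 1 to 9 reads numbered 579 to 591 in the UVA libraries, but 21 and 34 in non-irradiated replicates 1 and 2 and 299 in replicate 3. The authors' total reads ranged from 20.472 to 21.896 M for UVA and from 26.904 to 30.46 M for non-irradiated libraries. As these do not overlap, treatment and any batch linked to sequencing yield cannot be told apart. The edgeR quasi-likelihood test called 109 of 499 tested miRNAs (21.8%) at an adjusted p of 0.05 or lower, 68 of them higher (13.6%) and 41 lower (8.22%) in UVA skin. Groups did not overlap in 48.3% of the tested miRNAs, with UVA higher in 28.3% and lower in 20%. Epithelial miRNAs that mark skin were abundant in both groups: the 7 keratinocyte markers (miR-203-3p, miR-205-5p and the miR-200 family) summed to 34090 to 86159 CPM in the UVA libraries and 44041 to 53951 CPM in the others.

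miR-211-5p, the arm of miR-211 that accumulates as the mature miRNA, was higher in UVA skin. Non-irradiated replicates 1, 2 and 3 held 96, 65 and 57 reads of it, or 7.97, 4.96 and 8.30 CPM. UVA replicates 1, 2 and 3 held 1081, 5139 and 805 reads, or 69.0, 372.1 and 82.5 CPM. Every UVA library lay above every non-irradiated library, as in 28.3% of tested miRNAs. The lowest UVA value was 8.31 times the highest non-irradiated value. The mean rose from 7.08 ± 1.84 to 174.5 ± 171 CPM (mean ± SD, n = 3 per group), a ratio of 24.7 (log2 fold change 4.62 with SE 0.80; adjusted p = 0.00628 by edgeR). UVA replicate 2 stood 4.91 times above the mean of the other UVA libraries. Without it the UVA mean was 75.7 CPM, 10.7 times the non-irradiated mean, and the log2 fold change was 3.42 (edgeR adjusted p = 0.0257).

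The rank of miR-211-5p among the entries of a library, which needs no scaling between libraries, moved in the same direction. It was 281, 311 and 276 in the non-irradiated libraries and 162, 87 and 159 in the UVA libraries. Of the 499 tested miRNAs, 18 had a higher log2 fold change. In the authors' deposited table miR-211-5p has a log2 fold change of 4.67, a p of 0.0172 and a q of 0.217, which is above 0.05, where 59 of 1480 entries (3.99%) are at or below that value.

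**Figure D1:**
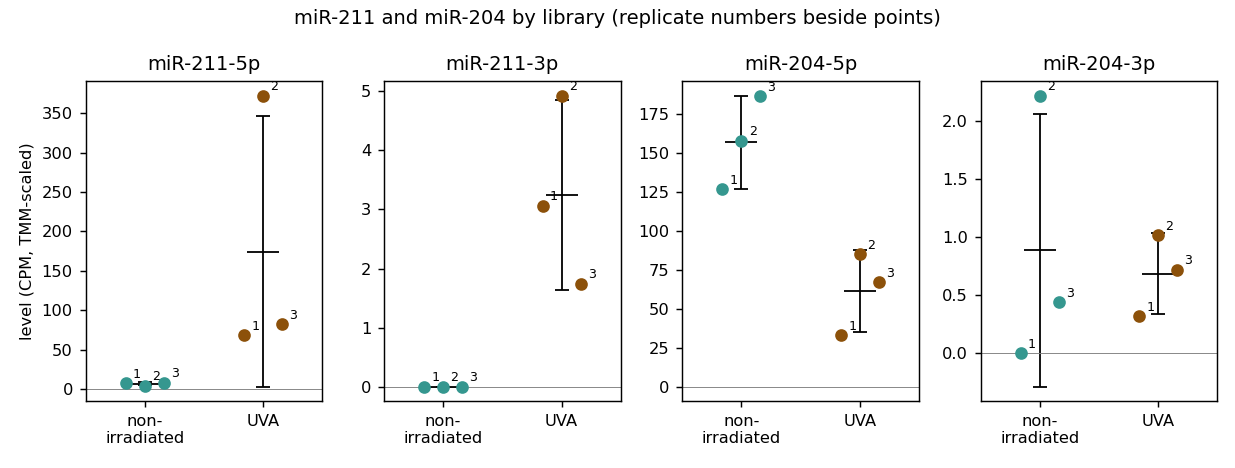
Levels of the 4 mature miRNAs in each library, in CPM on a linear axis of its own per panel, with replicate numbers beside the points and bars for mean and SD (n = 3 per group). miR-211-5p and miR-211-3p are higher in all 3 UVA libraries, miR-204-5p is lower in all 3, and miR-204-3p overlaps.

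miR-211-3p, the other arm of the same hairpin, had reads in the UVA libraries alone. It had 0 reads in each non-irradiated library and 48, 68 and 17 reads in UVA replicates 1, 2 and 3, or 3.06, 4.92 and 1.74 CPM. Against a floor of 3 counts per library its UVA mean of 3.24 ± 1.60 CPM (n = 3) was at least 10.6-fold higher, and at least 7.88-fold higher without UVA replicate 2. It passed the filter on low counts only through the UVA libraries, where it is high, so the filter had selected it for a difference and its edgeR adjusted p of 0.0122 (0.0796 without UVA replicate 2) is given as a description. Fitted over all 1480 entries with no filter, its edgeR adjusted p was 0.00103, where 5.14% of entries were called higher. In the authors' deposited table its q is 0.00716, where 3.99% of entries are at or below 0.05. Its fold change there is infinite because the control mean is 0. Both values rest on the same contrast with a group without reads and are also given as descriptions. The scarcity of entries with 1 to 9 reads in non-irradiated replicates 1 and 2 touches all of these values, and its part in them was not tested. Non-irradiated replicate 3, with 299 such entries, also had 0 reads.

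Reads of miR-211 came mostly from the 5p arm. The 3p arm made up 4.25%, 1.31% and 2.07% of the reads of the hairpin in UVA replicates 1, 2 and 3 (95% intervals 3.15 to 5.60%, 1.02 to 1.65% and 1.21 to 3.29%). The interval of replicate 1 did not overlap that of replicate 2, the library with the most miR-211-5p. The non-irradiated replicates had 0 of 96, 0 of 65 and 0 of 57 reads from the 3p arm, with exact upper 95% limits of 3.77%, 5.52% and 6.27%. Each of these intervals overlapped that of every UVA library, and a difference in arm use between the groups was not detectable at this depth. Non-irradiated replicates 1 and 2 also held few entries with 1 to 9 reads (21 and 34). The part of this in their 0 counts was not tested, and the limits do not cover it.

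miR-204-5p, the mature arm of the Trpm3 hairpin, lay lower in UVA skin without passing the test. Non-irradiated replicates 1, 2 and 3 held 1528, 2069 and 1281 reads, or 126.9, 158.0 and 186.5 CPM. UVA replicates 1, 2 and 3 held 520, 1175 and 654 reads, or 33.2, 85.1 and 67.0 CPM. The groups did not overlap, and every UVA library lay below the non-irradiated ones, as in 20% of tested miRNAs. The means were 157.2 ± 29.8 CPM in non-irradiated and 61.8 ± 26.3 CPM in UVA skin (n = 3 per group; log2 fold change -1.35 with SE 0.52; adjusted p = 0.0812 and unadjusted p = 0.0270 by edgeR). The DESeq2 Wald test called it lower, with an adjusted p of 0.0175, where that test called 15.6% of 493 miRNAs lower. The adjusted p was 0.0502 with limma-voom, and it was 0.429 by edgeR when libraries were scaled to the authors' total reads.

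On the deposited RPM scale, scaled to all reads of a library, the groups overlapped for miR-204-5p. Its values were 51.8, 67.9 and 47.6 RPM in the non-irradiated replicates and 23.7, 55.0 and 31.9 RPM in the UVA replicates. On the same scale miR-211-5p was at 3.25, 2.13 and 2.12 RPM and at 49.4, 240.5 and 39.3 RPM, still without overlap. Over all tested miRNAs the median log2 fold change was 0.27 with TMM scaling, 0.81 with plain library size and 1.07 with the authors' total reads. Relative to that median, miR-211-5p stood at 4.35, 4.35 and 4.39, and miR-204-5p at -1.62, -1.62 and -1.66, under these scalings in turn. These scalings change only the library sizes, which shifts the log2 fold changes of all miRNAs by nearly the same amount. The likeness of the values relative to the median follows from that and is no separate result. In the authors' deposited table miR-204-5p has a log2 fold change of -1.33 and a q of 0.458.

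miR-204-3p, the minor arm of that hairpin, was near the limit of counting. It had 0, 29 and 3 reads in non-irradiated replicates 1, 2 and 3 and 5, 14 and 7 reads in UVA replicates 1, 2 and 3. The groups overlapped, at 0.884 ± 1.17 and 0.683 ± 0.349 CPM (n = 3 per group), and it was not called (edgeR adjusted p = 0.859). Its log2 fold change was -0.39 (SE 1.36) and was positive with plain library sizes and with the authors' total reads.

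The 5p arms were then compared within each library, since their ratio does not depend on how libraries are scaled and both have the same length. In non-irradiated skin miR-204-5p was the main form: miR-211-5p made up 5.91%, 3.05% and 4.26% of the reads of the pair in replicates 1, 2 and 3. In UVA skin miR-211-5p was the main form in every library, at 67.5%, 81.4% and 55.2%. The 95% intervals reached at most 7.17% in a non-irradiated library and at least 52.6% in a UVA library.

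Expressed as a ratio of reads, miR-211-5p to miR-204-5p was 0.0628, 0.0314 and 0.0445 in the non-irradiated replicates. It was 2.08, 4.37 and 1.23 in the UVA replicates. The mean log2 ratio was -4.48 ± 0.50 and 1.16 ± 0.92 (SD, n = 3 per group), a difference of 5.64 (SE 0.60), or 50.0-fold (2-sided exact permutation test, p = 0.1, which is the smallest p possible with 3 against 3). With single libraries left out the difference ranged from 5.16 to 6.07.

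**Figure D2:**
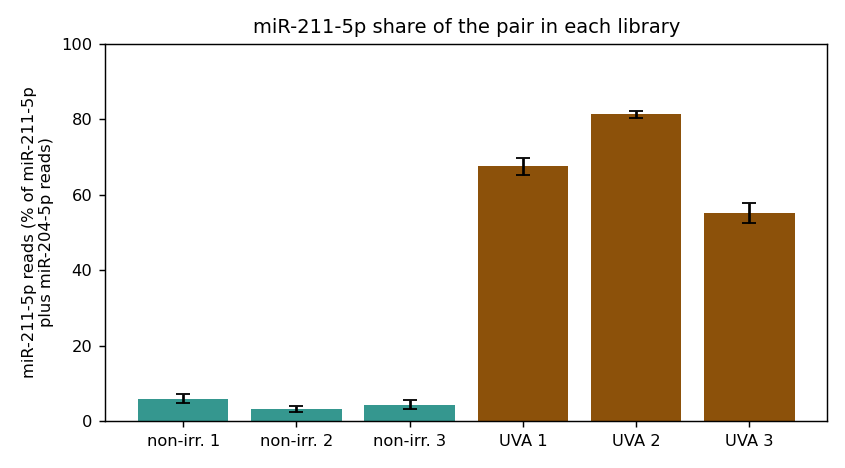
Share of miR-211-5p in the reads of miR-211-5p plus miR-204-5p in each library, in percent, with exact 95% intervals for counting error. The share is 3.05 to 5.91% in the non-irradiated libraries and 55.2 to 81.4% in the UVA libraries.

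Because a single base separates the 5p arms, a counting rule that allows a mismatch could move reads between them. The sources used here do not say how the authors' counting treated such reads, and both values are uncertain to that extent. The sum of the arms, which is free of that split, was at 134.9, 163.0 and 194.8 CPM in the non-irradiated replicates and at 102.1, 457.1 and 149.5 CPM in the UVA replicates. These groups overlapped, with UVA replicate 2 above and UVA replicate 1 below all other libraries. The log2 fold change of the sum was 0.49 with SE 0.60, which was not called (adjusted p = 0.570 by edgeR). Without UVA replicate 2 it was -0.40 (edgeR adjusted p = 0.652). The direction of the sum therefore rested on 1 library.

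**Figure D3:**
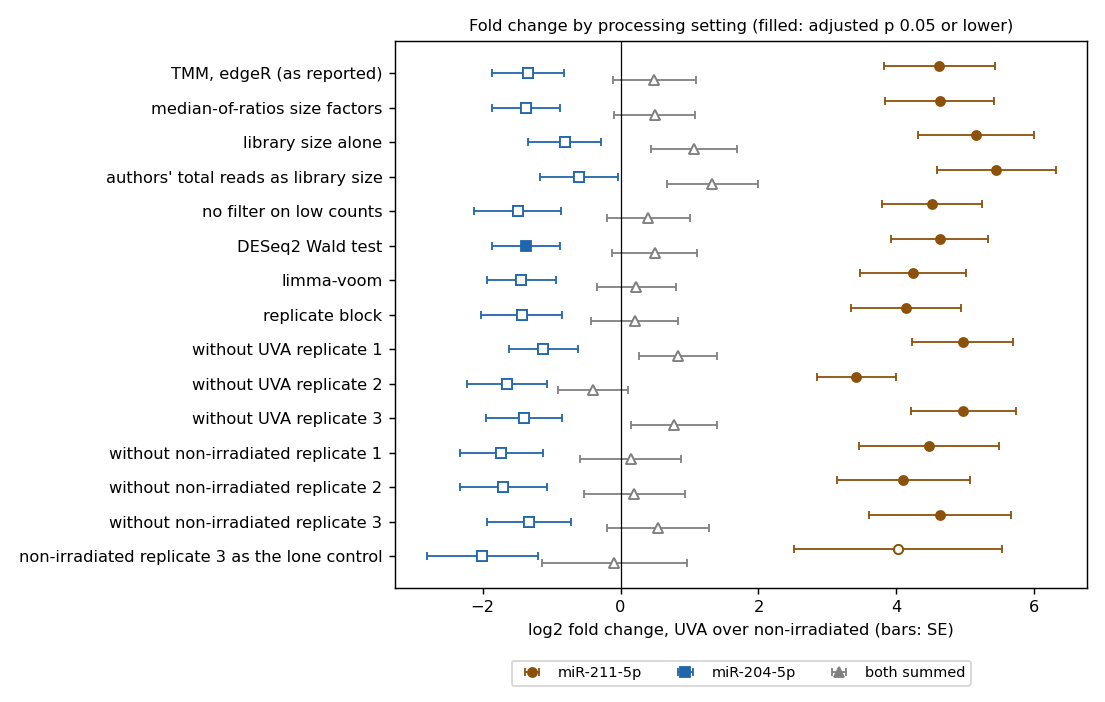
Log2 fold change of UVA over non-irradiated skin for miR-211-5p, miR-204-5p and the sum of both, under each processing setting, with bars for the SE and filled symbols at an adjusted p of 0.05 or lower. miR-211-5p stays between 3.42 and 5.45 and miR-204-5p stays below 0, while the sum lies on both sides of 0.

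Markers of other cell types were summed in the same libraries, and in bulk RNA fewer cells of a type and less RNA per cell cannot be told apart. The melanocyte itself has no marker here other than miR-211. For the calls in these lists, 13.6% of all tested miRNAs were higher and 8.22% lower. The fibroblast markers summed to 2639 to 3851 CPM in the non-irradiated and 19033 to 28450 CPM in the UVA libraries, with 3 of 4 tested entries higher: miR-199a-5p, miR-214-5p and miR-199a-3p/miR-199b-3p, an entry of 2 merged names. The striated muscle markers summed to 318624 to 479266 CPM and 41907 to 58523 CPM, with miR-1a-3p lower and miR-133b-3p higher among 5 tested. That sum was mostly miR-1a-3p, at 91.2 to 94.3% in the non-irradiated and 40.0 to 92.9% in the UVA libraries. Of the others, miR-133a-3p was at 429.6 ± 88.5 CPM in non-irradiated and 422.6 ± 203 CPM in UVA skin (SD, n = 3 per group), and miR-133a-3p and miR-206-3p overlapped between the groups. miR-499-5p was lower in every UVA library, as in 20% of tested miRNAs, at 6.56 ± 2.36 CPM in non-irradiated and 2.21 ± 1.13 CPM in UVA skin. It was not called (edgeR adjusted p = 0.159).

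The summed levels of the remaining cell type lists overlapped between the groups. Those of the keratinocyte markers, given above, did so too, and 1 of 7 tested was called higher (miR-205-5p), a share near the 13.6% of all tested miRNAs. In every library most of this sum was miR-203-3p, at 42457 ± 5238 CPM in non-irradiated and 50936 ± 24473 CPM in UVA skin. The list had a median log2 fold change of 0.85 against 0.27 over all tested miRNAs, with 6 of 7 positive. miR-205-5p, miR-200c-3p and miR-429-3p were higher in every UVA library, as in 28.3% of tested miRNAs, and the other members overlapped. The neural and glial markers, of interest because melanocytes share a neural crest origin with Schwann cells, summed to 136.0 to 208.2 and 148.2 to 199.5 CPM in non-irradiated and UVA skin. Of that list miR-338-3p was higher among 2 tested, and miR-124-3p and miR-219a-5p had 0 reads in the non-irradiated libraries. The leukocyte markers summed to 486.3 to 791.7 and 368.7 to 1362 CPM, with miR-150-5p lower among 4 tested. The erythroid markers summed to 2105 to 2861 and 806.8 to 3403 CPM, with none of 3 called. The highest sum, in UVA replicate 1, was mostly miR-451a (2953 CPM). miR-486a-5p/miR-486b-5p was lower in every UVA library, as in 20% of tested miRNAs (log2 fold change -1.54, edgeR adjusted p = 0.0661). DESeq2 and limma-voom each called 1 erythroid marker lower, where they called 15.6% and 13.4% of all miRNAs lower. Over all tested miRNAs 13.6% were higher and 8.22% lower, and 1 call in so short a list is not read as a result about a cell type. UVA replicate 2, the library with the most miR-211-5p, had the highest keratinocyte (86159 CPM) and fibroblast (28450 CPM) sums and the lowest muscle (41907 CPM), leukocyte (368.7 CPM) and erythroid (806.8 CPM) sums of all libraries. Among the calls in these lists, miR-133b-3p and miR-338-3p lost theirs when UVA replicate 2 or any non-irradiated library was left out (edgeR adjusted p from 0.0604 to 0.197 and from 0.0717 to 0.109), with log2 fold changes of 1.30 to 2.15 and 1.73 to 2.14 against 1.84 and 2.13 with all libraries. miR-150-5p lost its call for every library except non-irradiated replicate 2 (0.0578 to 0.104), at -1.78 to -1.40 against -1.51. miR-199a-5p lost it for UVA replicate 2 and non-irradiated replicates 1 and 2 (0.0965 to 0.147), and miR-214-5p for the latter (0.0687 and 0.0734). The part of the differences between lists in the levels of miR-211 and miR-204 was not tested.

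Mitf, the transcription factor upstream of Trpm1 and miR-211, is itself repressed by several miRNAs. Of 10 miRNAs reported to target its mRNA in mammals, 9 were tested, 0 were higher, 1 was lower and 8 were not called, with a median log2 fold change of 0.11 against 0.27 over all tested miRNAs. Over all tested miRNAs 13.6% were higher and 8.22% lower, so the share of lower members is near the background. The lower one was miR-182-5p, at 7628 ± 1712 CPM in non-irradiated and 2233 ± 130 CPM in UVA skin (n = 3 per group; log2 fold change -1.77 with SE 0.38; adjusted p = 0.0122 by edgeR). It was not called without UVA replicate 2 (edgeR adjusted p = 0.0567) or with the authors' total reads (edgeR adjusted p = 0.101). The most abundant were miR-148a-3p, at 173142 ± 80352 and 95073 ± 72506 CPM, and miR-26a-5p, at 51829 ± 4513 and 62656 ± 12848 CPM, neither of them called, although miR-148a-3p was called lower without UVA replicate 1 (edgeR adjusted p = 0.0189). Without UVA replicate 1 the edgeR counts were 2 higher and 4 lower, where 13.6% and 8.42% of all miRNAs were called, and without UVA replicate 2 they were 0 and 0, against 3.55% and 3.19%. They were 2 and 1 with plain library sizes, against 24.4% and 5.41%, and 2 and 0 with total reads, against 29.1% and 4.41%.

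Among 12 miRNAs known from melanocytes or melanoma, all tested, 5 were higher, 1 was lower and 6 were not called, with a median log2 fold change of 1.15, against 13.6% higher, 8.22% lower and a median of 0.27 over all tested miRNAs. miR-221-3p, which represses Kit, the receptor that melanocytes need for survival, rose from 120.6 ± 17.97 to 1127 ± 607 CPM (n = 3 per group; log2 fold change 3.22 with SE 0.57; adjusted p = 0.00647 by edgeR). Its cluster partner miR-222-3p rose from 53.0 ± 1.18 to 292.1 ± 219 CPM. miR-205-5p, abundant in keratinocytes and low in human melanoma, rose from 671.9 ± 196 to 5256 ± 2057 CPM. The other higher ones were miR-34a-5p, a target of p53, with a log2 fold change of 2.39, and miR-146a-5p, a miRNA of inflammatory signalling, with 1.25. miR-143-3p, typical of smooth muscle and fibroblasts, fell from 92245 ± 50051 to 30668 ± 2871 CPM.

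Several of these calls were lost when a library was left out, with log2 fold changes of similar size. The count of higher members was 2 without UVA replicate 2, where 3.55% of all tested miRNAs were called higher. Dropping any single non-irradiated library also gave 2, against 4.37%, 4.80% and 14.7% of all for replicates 1, 2 and 3. The count stayed at 5 without UVA replicate 1 (13.6% of all) and without UVA replicate 3 (11.6%). Where the count was 2, the share of all tested miRNAs had thus dropped as well, except for non-irradiated replicate 3. miR-222-3p and miR-34a-5p lost their calls when UVA replicate 2 or any non-irradiated library was left out (edgeR adjusted p from 0.0586 to 0.0818 and from 0.0651 to 0.113), with log2 fold changes of 2.05 to 2.57 against 2.46 and of 1.94 to 2.63 against 2.39. miR-146a-5p did so for every library except UVA replicate 3 (0.119 to 0.254), at 0.89 to 1.30 against 1.25. miR-143-3p did so for UVA replicates 2 and 3 and non-irradiated replicate 2 (0.0540 to 0.103), at -1.65 to -1.36 against -1.59, and also with plain library sizes (0.0852) and total reads (0.195). miR-205-5p and miR-221-3p were called whichever single library was left out. With plain library sizes, as with total reads, 7 were higher and 0 lower, while the share of all tested miRNAs called higher rose from 13.6% to 24.4% and 29.1%. miR-203-3p, miR-205-5p and miR-200c-3p also stand in the keratinocyte list, so these lists are not independent of each other.

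**Figure D4:**
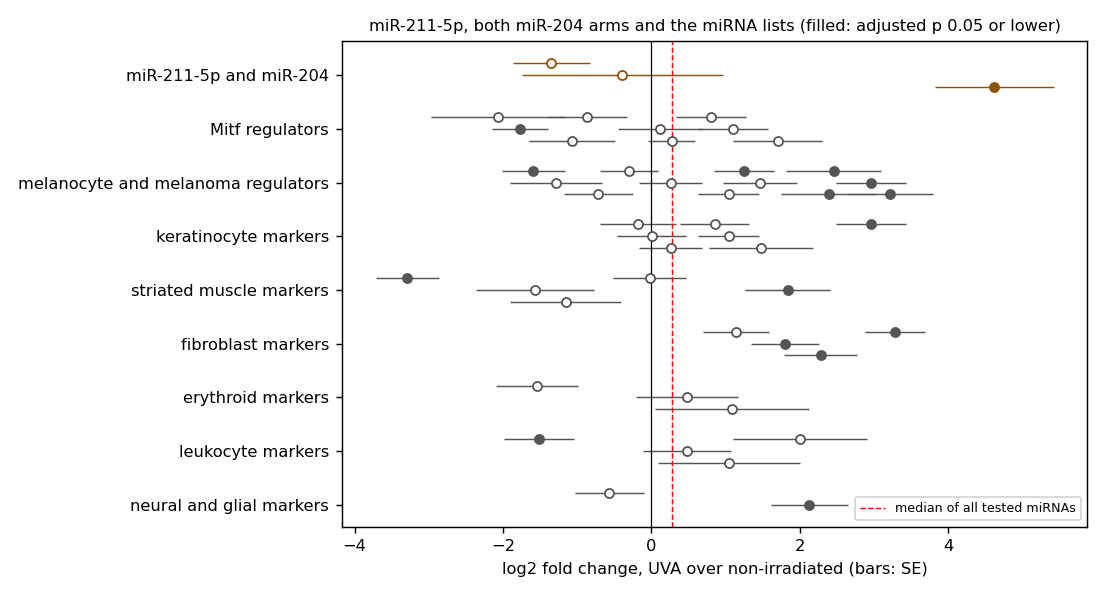
Log2 fold change with SE of miR-211-5p, both arms of miR-204 and the tested members of each miRNA list, with filled symbols at an edgeR adjusted p of 0.05 or lower and a dashed line at the median of all tested miRNAs. miR-211-3p is not drawn because its fitted value rests on a group without reads. miR-211-5p lies to the right of every list member shown.

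The tested miRNAs with profiles most like miR-211-5p were found by the mean absolute difference of log2 CPM over the 6 libraries, each profile centred on its mean. The closest was miR-199a-3p/miR-199b-3p, a fibroblast miRNA, at 0.54 log2 units, where the median over all tested miRNAs was 2.06. It rose from 1800 ± 319 to 17603 ± 4986 CPM. A rise in UVA skin follows from picking profiles for likeness to miR-211-5p and is no separate result. The keratinocyte miR-205-5p was also among the 5 closest, at 0.64. The others, miR-3065-3p, miR-701-5p and miR-1943-3p, at 0.56 to 0.64, had 0 reads in the non-irradiated libraries and 0.917 to 1.10 CPM on average in UVA skin, so their profiles depend on the prior count.

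The profiles closest to miR-204-5p belonged to miRNAs with lower values in UVA skin. That direction followed from the way they were picked, since miR-204-5p was itself lower in every UVA library, so it is no separate result. They were miR-127-3p and miR-434-3p of the imprinted Dlk1-Dio3 region, miR-150-5p of mature lymphocytes, miR-532-5p, and miR-10a-5p of a Hox cluster. Their distances were 0.23 to 0.30 log2 units, where the median over all tested miRNAs was 1.20. miR-10a-5p was at 27239 ± 10003 CPM in non-irradiated and 8154 ± 3437 CPM in UVA skin and was called lower (edgeR adjusted p = 0.0242), as was miR-150-5p (edgeR adjusted p = 0.0461). Over all tested miRNAs edgeR called 8.22% lower. As the profiles were picked for likeness to miR-204-5p, calls among them are given as descriptions. The call of miR-10a-5p was lost when replicate 3 of either group was left out (edgeR adjusted p = 0.0578 and 0.0588), and that of miR-150-5p without each single library except non-irradiated replicate 2. Both calls were also lost with plain library sizes (edgeR adjusted p = 0.0716 and 0.143) and with total reads (0.156 and 0.298). miR-127-3p, miR-434-3p and miR-532-5p were not called by edgeR with all libraries, although miR-532-5p was called lower without UVA replicate 3 (edgeR adjusted p = 0.0299). The DESeq2 Wald test called miR-127-3p and miR-532-5p lower (adjusted p = 0.0279 and 0.0249), as did limma-voom (0.0454 and 0.0429). These tests called 15.6% and 13.4% of all miRNAs lower. miR-434-3p was called under no setting. No miRNA stood among the 5 closest of both 5p arms, which follows from the opposite directions of the arms.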

How the data were processed

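Small RNA of mouse skin was sequenced in 6 samples. Per the labels' protocols, total RNA was prepared with the mirVana kit, and libraries came from a TruSeq Small RNA kit. The deposited read counts per mature miRNA were used as they stand. The submitters' processing notes name Bowtie; the sources used here give neither its version nor the genome build. The deposited RPM values are those counts scaled to reads-per-million of the authors' total reads. The authors' mean normalized signal per group, their fold change (a ratio and its log2) and their p-values and q-values are from the authors' deposited table, per the file headers; no source used here names the tool. Before this work 2 lines of each file were emptied, and they are not analysed here.

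Columns were matched to samples through the sample descriptions. Groups were compared over all miRNAs with edgeR 4.0.16 (R 4.3.3; quasi-likelihood test, TMM scaling, default filterByExpr filter, Benjamini-Hochberg adjustment), tested first on simulated counts with 200 changed miRNAs. All 4 members passed the filter, miR-211-3p only through its UVA reads. Levels are counts-per-million (CPM) of the TMM-scaled library, and standard errors (SE) are the absolute log2 fold change over the square root of F. Alternatives used DESeq2 1.42.0, limma 3.58.1 (voom), other scalings, no filter, a replicate block and fewer libraries. Ratios within a library used a pseudocount of 0.5 and an exact permutation test (SciPy 1.17.1). Shares carry exact Clopper-Pearson 95% intervals. Since PCR reads without molecular identifiers can be copies of 1 molecule, intervals and floors cover counting error only.

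The members, lists and tests were chosen with earlier results of these data known. Named are the members, entries that share a seed or lie within 3 edits, the 5 closest profiles of each 5p arm, the 2 most abundant and up to 4 called miRNAs of each list (called ones only for cell types), and, after their values were seen, miR-34a-5p and miR-146a-5p. Some members of the cell type lists that were not called are also named, outside that rule. Sequences and hairpin positions are from RefSeq (GRCm38.p6), where all 4 members matched by name and sequence, and introns from GENCODE M21 (GRCm38).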

Additional observations from a re-analysis of the deposited data

How the results depend on the processing

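miR-211-5p stayed positive under all 14 alternatives (3.42 to 4.97 with single libraries left out) and passed the threshold in 13. With non-irradiated replicate 3 as the lone control, assumed to vary like the UVA group, it was 4.03 (edgeR adjusted p = 0.229), miR-211-3p 8.22, the sum of the 5p arms -0.088, miR-26a-5p -0.17 and miR-204-3p 0.23, and 1 miRNA was called. The fitted miR-211-3p value was 7.80 to 8.63 with single libraries left out. miR-204-5p stayed negative under all 14 and passed the threshold only with the DESeq2 Wald test (-1.37). miR-204-3p turned positive with library size alone (0.22), the authors' total reads (0.20), limma-voom (0.82) and the replicate block (0.68). With single libraries left out, the sum of the 5p arms was -0.40 to 0.83, miR-26a-5p was -0.12 to 0.36 (negative without non-irradiated replicate 2), and 38 to 124 miRNAs were called (38 when UVA replicate 2 was left out, 57 and 63 for non-irradiated replicates 1 and 2 in turn). The authors' total reads gave 167 calls and DESeq2 191. The cause was not tested.

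The 5p to 3p ratio of miR-211 differed by -1.75 on the log2 scale with a pseudocount of 0.5, but by -0.78 with 1 and -4.04 with 0.1. The 3p arm had 0 reads in a whole group, so these values rest on the pseudocount and none is taken as a result. Same-numbered libraries did not deviate together (correlations 0.085, -0.08 and -0.01), and not every library correlated best with its own number. The replicate block gave 106 calls, with miR-211-5p at 4.14 and miR-204-5p at -1.44, and a difference of 5.64 in the log2 ratio of the 5p arms. Depth limits both 3p arms, which had at most 68 reads in a library.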
